A study of Mus musculus with 24 samples.

Results

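Between postnatal day 24 (P24), early anagen of the second hair cycle, and postnatal day 28 (P28), mid-anagen of that cycle, the RNA of dermal papilla (DP) cells was followed in control mice and in mice that lack Hdac1 and Hdac2 in the DP (dM1/2). The comparison described is the change from P24 to P28 in dM1/2 minus the change from P24 to P28 in controls, gene by gene. It uses 12 of the 24 libraries of the series, 3 libraries for each age and genotype, and each library is the DP of a single male mouse, so that a group holds 3 mice. Mice of the dM1/2 genotype were Cor-cre/+; Hdac1 Flox/Flox; Hdac2 Flox/Flox. Controls, labelled WT, also carried Cor-cre/+, together with floxed alleles of Hdac1, of Hdac2 or of both in any of 5 combinations, some of them homozygous for a single gene, and the labels do not give the combination of each control mouse. Cre was driven by the Corin locus, whose activity in skin marks the DP, and the cells carried a Cre-dependent EYFP reporter, by which they were sorted from back skin.

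The DP is a small mesenchymal cluster enclosed by the hair bulb. It signals to the epithelial matrix around it through Wnt agonists such as R-spondins, through FGF ligands and through BMP antagonists, and during anagen the matrix divides to build the hair shaft while DP cells themselves divide little. Hdac1 and Hdac2 are closely related histone deacetylases that work inside the Sin3, NuRD and CoREST corepressor complexes, where they remove acetyl groups from histones. Because the P24 and P28 libraries come from different mice, the change with age is a difference between groups of mice and not a change followed in an animal. Each library pools all the sorted cells of a mouse, so that fewer cells holding a transcript and less of the transcript per cell cannot be told apart.

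The value of a gene in a library is its normalized read count, that is its reads scaled by the DESeq2 size factor of that library. Between 35469841 and 49331751 reads per library fell on genes. A gene was tested if it averaged 10 or more normalized reads over the 12 libraries, which left 14139 genes. Changes are given on the scale of log2(normalized reads + 1), on which low genes appear to change less than they do, and a difference above 0 means that the gene moved higher in dM1/2 than in controls between the ages. Hdac1 was represented by 675, 668 and 668 normalized reads in the P24 controls, by 214, 529 and 105 in the P28 controls, by 209, 188 and 116 in the P24 dM1/2 mice and by 190.2, 149 and 126 in the P28 dM1/2 mice. P28 control 1 therefore lay just above, and P28 control 3 below, the dM1/2 range for Hdac1, whereas P28 control 2 lay well above it. Whether P28 controls 1 and 3 were homozygous for floxed Hdac1 is not given in the labels. Every P28 control lay below every P24 control for Hdac1, so that age and Hdac1 level cannot be told apart among controls. The part of this in the control changes, and so in the differences between genotypes, was not tested. Hdac2 lay between 925 and 1282 normalized reads in all 12 libraries. Since reads were counted over the whole gene, transcripts of a recombined allele can still be counted, and these levels do not measure the protein.

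P28 control 2 stood apart in other ways. Col1a1 took 19.8% of its reads, its size factor was 1.56 against 1.99 to 2.96 in the other 11 libraries, and its summed level of 13 markers of other dermal fibroblasts was 8.52391e+06 normalized reads, against 517519 in P28 control 3 and 3.40337e+06 in P28 control 1. Its 27 DP markers summed to 269401, below the 464901 and 717438 of P28 controls 1 and 3 and the 485493 to 585203 of the P24 controls. In dM1/2 the DP markers summed to 248884 to 291517 at P24 and to 190938 to 210485 at P28. Every one of the 27 DP markers was read in these libraries. The results below are given with this in view, and their values with P28 control 2 as the sole P28 control, and without it, are given where they bear on a statement; the part of these library differences in the results was not tested.

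Control DP changed more genes between P24 and P28 than dM1/2 DP did in the same fit. In controls 1478 genes changed (10.5% of those tested), of which 608 rose (4.3%) and 870 fell (6.15%), whereas in dM1/2 41 genes changed (0.29%), 33 upward (0.233%) and 8 downward (0.0566%). These counts share a single estimate of the spread over 12 libraries. When each genotype was fitted on its own 6 libraries, 198 genes changed in controls and 364 in dM1/2, so that the order of the counts turned with the choice of fit. The median absolute change was 0.26 in controls and 0.19 in dM1/2, a measure that also grows with the spread between mice, whose median SD over genes was 0.227 and 0.264 in the P24 and P28 controls and 0.210 and 0.192 in dM1/2. The split of the dM1/2 changes depended on the fit as well, with 79 upward and 60 downward without P28 control 2, 242 and 179 with DESeq2 and 52 and 33 with all 24 libraries in the fit. Of the 1478 genes that changed in controls, 1197 had a dM1/2 change in the same direction, 1434 had a smaller one in size, and the median ratio of the dM1/2 change to the control change was 0.255. Because these genes were chosen by their control change, a ratio below 1 is partly set by the choice. Across all 14139 genes the change in dM1/2 and the change in controls, from libraries that do not overlap, had a Pearson correlation of 0.38, given as a description since genes are not independent replicates.

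The change itself differed between the genotypes for 100 genes (0.707% of those tested), 64 toward dM1/2 (0.453%) and 36 toward controls (0.255%). With all 24 libraries of the series in the fit 92 genes passed, 38 toward dM1/2 and 54 toward controls, and 47 of them were among the 100, so that the larger side turned with the fit. In 90 of the 100 the control change passed the test and the dM1/2 change did not: 55 fell in controls and 35 rose. In 5 genes, Slc12a1, Cemip, Sez6l2, Lix1 and Nmnat2, the dM1/2 change passed and the control change did not, and in 5 others, Cntn3, Dusp26, Wnt10a, Crmp1 and Shisa9, neither passed alone. Levels of the P24 and P28 controls did not overlap in 95 of the 100, against 26.5% of all genes tested. Levels of the P24 and P28 dM1/2 libraries did not overlap in 48, against 21.7%. The 100 genes were chosen by these same values, so that these counts are partly set by the choice and test nothing. The number of genes depended on the libraries: it was 8 without P28 dM1/2 2, 12 without P28 dM1/2 3, 15 without P28 dM1/2 1, 10, 13 and 23 without P24 dM1/2 1, 2 and 3, 20 and 14 without P24 controls 1 and 3, and 167 without P28 control 2. None of the 100 turned its sign in any fit that left out a library and tested it. Of them, 99 were tested in all 12 such fits. All 100 kept their sign with P28 control 2 as the sole P28 control. Since the 100 genes were chosen from these same libraries, a kept sign is largely set by the choice and tests nothing.

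**Figure D1:**
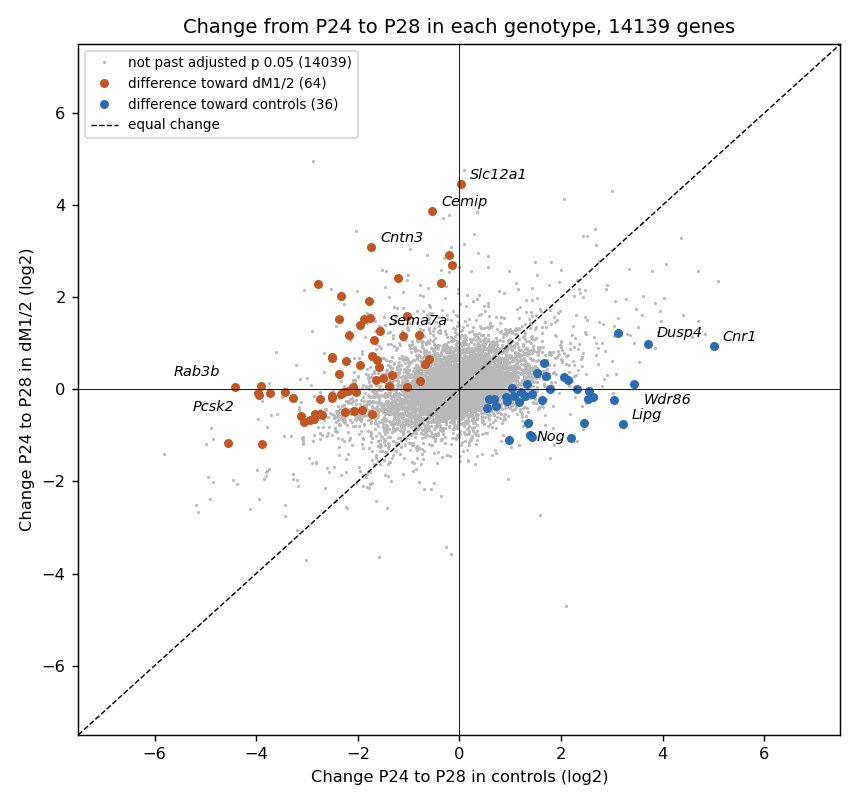
Change from P24 to P28 in controls (x axis, log2) against that in dM1/2 (y axis, log2) for 14139 genes; grey points did not pass the test of the difference, orange points are the 64 genes that differed toward dM1/2, blue points the 36 that differed toward controls, and the dashed line marks equal change. Most coloured points lie far from 0 on the x axis and near 0 on the y axis, and Slc12a1 and Cemip are exceptions that moved in dM1/2 alone.

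The genotypes stood further apart at P28 than at P24 for 90 of these 100 genes. The median difference of dM1/2 against control was 0.53 at P24 and 3.22 at P28 for the 64 genes that differed toward dM1/2, and -0.02 at P24 and -1.82 at P28 for the 36 that differed toward controls. Of the 100 genes, 47 differed between genotypes at P24, where 27.1% of all genes did, and 94 at P28, where 41.8% did. Since the difference between the ages chose these genes, the widening describes them and tests nothing.

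**Figure D2:**
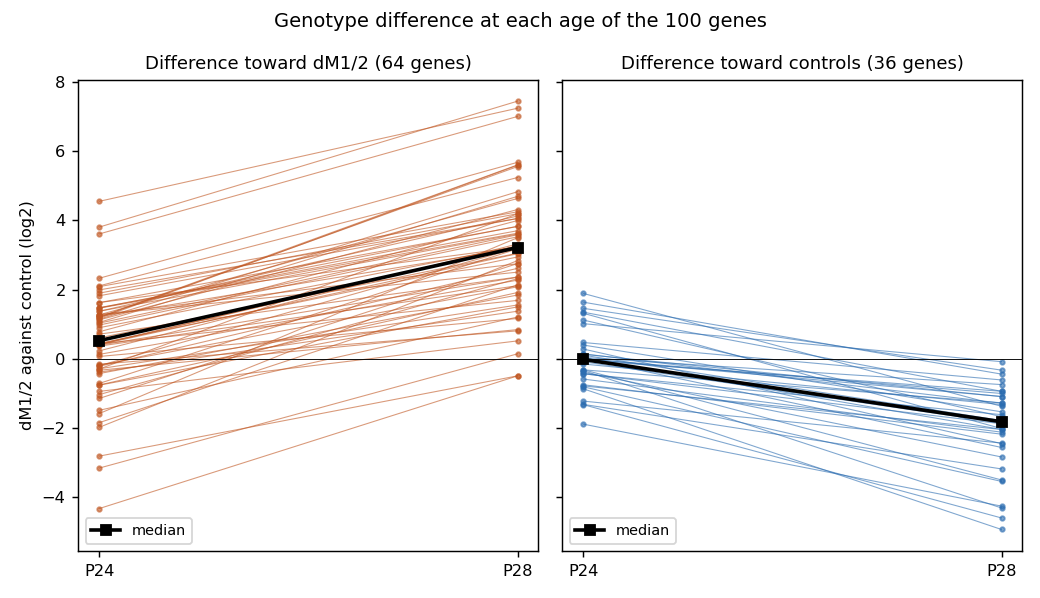
Difference of dM1/2 against control (y axis, log2) at P24 and at P28 for the 64 genes that differed toward dM1/2 (left) and the 36 that differed toward controls (right); each thin line is a gene and the black line joins the medians, which move from 0.53 to 3.22 on the left and from -0.02 to -1.82 on the right.

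Among the genes that rose in controls and did not pass in dM1/2, Dusp4 and Wdr86 passed the test of the difference in all 12 fits that left out a library. Dusp4 (chr8:34807297-34819894, mm10) encodes a phosphatase that switches off ERK and related MAP kinases. Its normalized reads were 342, 418 and 369 in the P24 controls and 4006, 4244 and 7035 in the P28 controls, and 527, 438 and 413 in dM1/2 at P24 and 969.7, 779 and 969.5 at P28. The genotypes overlapped at P24, and at P28 every control lay above every dM1/2 library. Dusp4 rose by 3.71 on the log2 scale in controls, or 13.1-fold, and its change in dM1/2 was 0.98 (adjusted p = 0.0773). Its difference was -2.73 ± 0.28 (SE, adjusted p = 0.00919). Wdr86 (chr5:24711738-24730727) had 247, 169 and 129.8 normalized reads in the P24 controls, 1469, 1720.2 and 2818 in the P28 controls, 357, 478 and 498 in the P24 dM1/2 mice and 486, 531 and 415 in the P28 dM1/2 mice. For Wdr86 dM1/2 lay above controls at P24 and below them at P28. Its difference was -3.33 ± 0.38 (SE, adjusted p = 0.00919).

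Several of the genes that rose in controls and did not pass in dM1/2 encode receptors and signals. Cnr1, the cannabinoid receptor of neurons, showed the steepest control rise of them, from 15.1, 26.1 and 35.3 to 561, 981 and 944 normalized reads. The dM1/2 mice had 27.6, 10.3 and 7.10 at P24 and 14.1, 38.99 and 29.3 at P28. Its difference was -4.07 ± 0.73 (SE, adjusted p = 0.0379), and control and dM1/2 levels overlapped at P24 but not at P28. Nog, or noggin, a secreted BMP antagonist made by the DP, had 319.96, 431 and 279 normalized reads in the P24 controls and 978, 633 and 1039.9 in the P28 controls. Its dM1/2 values were 931, 927 and 1357 at P24 and 708, 559.6 and 647 at P28. Nog thus stood above the controls in dM1/2 at P24 and overlapped with them at P28. The control change of Nog was 1.35 (adjusted p = 0.00441) and its difference was -2.08 ± 0.32 (SE, adjusted p = 0.0298). Its dM1/2 change was -0.73 (adjusted p = 0.253), without overlap between the ages. Notch2, a Notch receptor, was read at 3405, 2953 and 3240.03 in the P24 controls, 6382, 6335 and 5492 in the P28 controls, 3666, 3180.03 and 2811 in the P24 dM1/2 mice and 2969, 2581 and 3000.5 in the P28 dM1/2 mice. All 3 P28 controls lay above the other 9 libraries for Notch2. The difference was -1.09 ± 0.18 (SE, adjusted p = 0.031). Nrg2, a ligand of ErbB receptors, rose in controls from 3016, 3178 and 2962 to 7630.2, 5004 and 13229.9 normalized reads and had 753, 919 and 807 and then 472, 368 and 413 in dM1/2, so that it was below the controls at both ages. The difference of Nrg2 was -2.37 ± 0.38 (SE, adjusted p = 0.0298). Its dM1/2 change was -0.99 (adjusted p = 0.18), also without overlap between the ages.

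A further group encodes proteins of cell adhesion and matrix. Cdh6, a classical cadherin, rose from 243, 335 and 178 normalized reads in the P24 controls to 1160.1, 1015 and 2362 in the P28 controls. The mutant DP had 155, 124 and 139 and 135, 96.8 and 131 at the 2 ages. Flrt1, a leucine-rich adhesion protein, rose in controls from 77.4, 85.4 and 81.8 to 519, 431 and 599. Levels in dM1/2 were 247, 187 and 123.1 at P24 and 130.5, 129 and 242 at P28. For Flrt1 the order of the genotypes turned, with dM1/2 above controls at P24 and below at P28. The differences were -2.79 (adjusted p = 0.0247) for Flrt1 and -2.73 (adjusted p = 0.0298) for Cdh6. Celsr1, a cadherin of planar cell polarity, which orients hair follicles in skin, also turned: its normalized reads were 40.2, 57.7 and 107 and then 193, 303 and 435 in controls and 280.2, 261 and 181 and then 137, 76.7 and 138 in dM1/2. Tenm4, a teneurin adhesion receptor, had 225, 228 and 329.9 and then 967, 449 and 755 in controls, and 233, 223 and 144 and then 97.2, 84.8 and 106 in dM1/2. Matn4, a matrilin that links matrix filaments, had 916, 624 and 326 and then 2716, 2414 and 4705 in controls, and 413, 376 and 625 and then 161, 363 and 359 in dM1/2. Each of these 3 genes rose in controls without overlap between the ages. The differences were -3.26 (adjusted p = 0.0332) for Celsr1, -2.45 (adjusted p = 0.031) for Tenm4 and -3.19 (adjusted p = 0.0414) for Matn4.

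Other genes that rose in controls and did not pass in dM1/2 have roles in lipid handling, ion flow and transcription. Lipg, the endothelial lipase, rose in controls from 139, 129.5 and 121 to 724, 872 and 2842 normalized reads, with P28 control 3 far above the others. Mutant mice had 111, 84.5 and 114 and then 90.4, 51.9 and 46.6. Its difference was -3.97 ± 0.61 (SE, adjusted p = 0.0298). Kcnn3, a calcium-gated potassium channel, rose in controls from 399, 536 and 285 to 1325, 1636 and 2062, to levels that overlapped with the 1459, 1339 and 1159 of the P28 dM1/2 mice, which had held 964, 1183 and 1117 at P24. Kcnn3 is therefore a gene for which the gap narrowed. Its difference was -1.79 ± 0.31 (SE, adjusted p = 0.0379). Zhx3, a zinc finger and homeobox transcription factor, rose in controls from 2631, 2634 and 2531 to 4650.3, 5398 and 6031. The dM1/2 levels were 2665, 2941 and 2257 and 2662, 2536 and 2791. Tmem176b, among the most abundant of the 100 genes, rose in controls from 2605, 3011 and 2136 to 7914, 7166 and 10331. Values in dM1/2 were 1409, 1443 and 1734 and 1589.7, 2167 and 1834. In both genes the P28 controls lay above all other libraries, with differences of -1.01 (adjusted p = 0.0379) for Zhx3 and -1.43 (adjusted p = 0.0379) for Tmem176b. Differences of -2.58 (adjusted p = 0.0399) for Cmpk2, a mitochondrial nucleotide kinase, and -3.28 (adjusted p = 0.0488) for Bves, a Popeye domain membrane protein, complete the genes named for this direction, and the other 19 of the 36 had differences from -0.78 for Lpgat1 to -2.29 for Tnfrsf19.

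**Figure D3:**
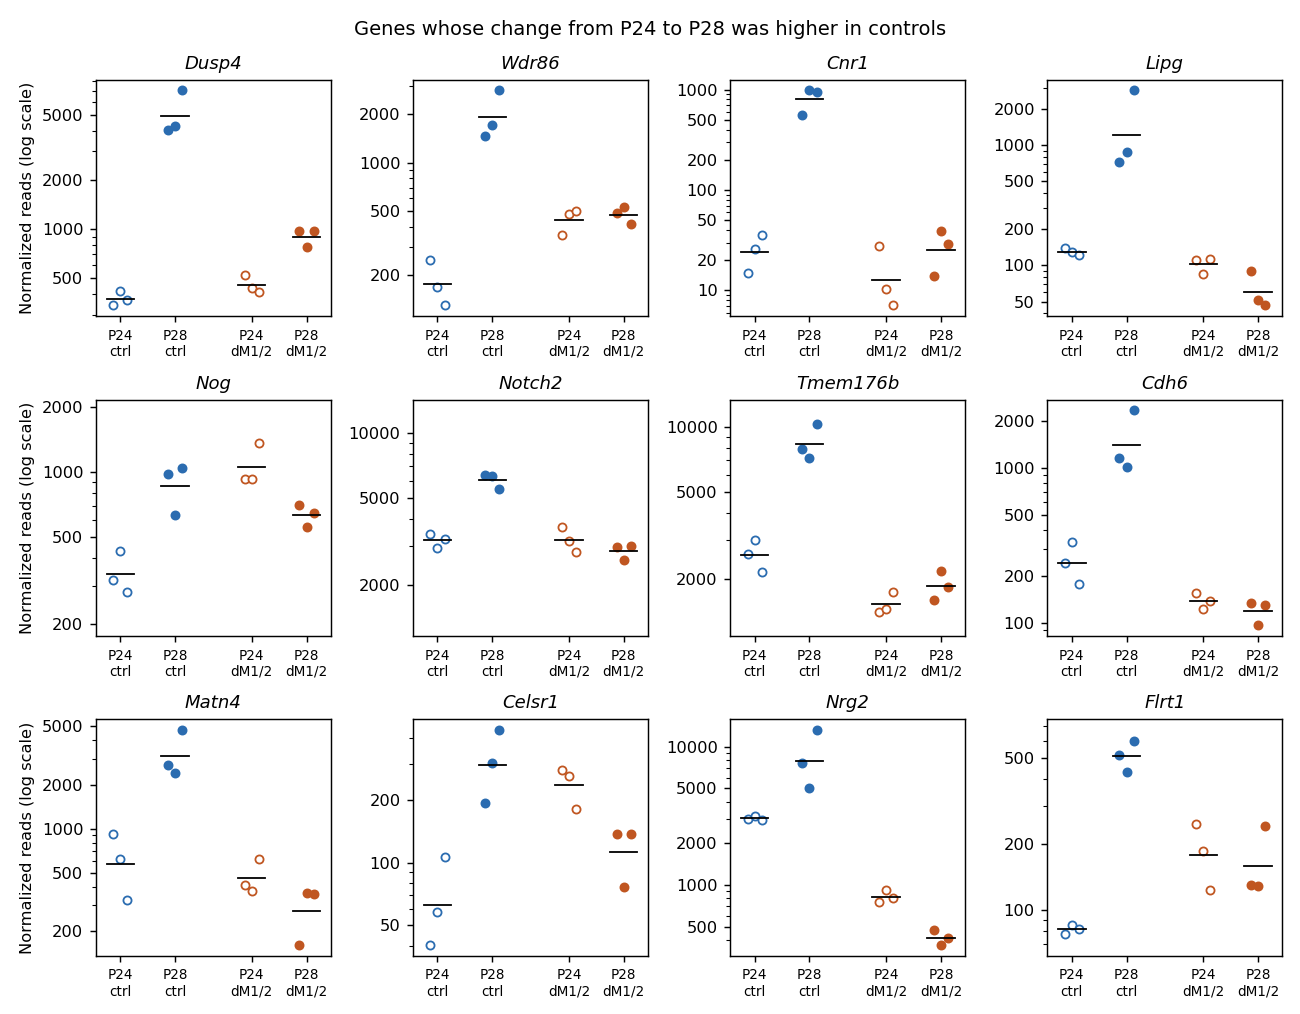
Normalized reads (y axis, log scale, its range set for each gene) of 12 genes whose change from P24 to P28 was higher in controls, for 3 controls (blue) and 3 dM1/2 mice (orange) at P24 (open) and P28 (filled); the line in each group is the mean on the log scale. The filled blue points lie above the open blue ones for every gene, and among the orange points Dusp4 alone lies higher at P28 than at P24 without overlap.

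Toward dM1/2, the genes that moved in dM1/2 itself were few. Slc12a1 (chr2:125152505-125230002), a sodium, potassium and chloride cotransporter best known from the kidney, had 19.3, 25.1 and 49.6 normalized reads in the P24 controls and 26.97, 24.98 and 38.7 in the P28 controls. The dM1/2 mice had 68.3, 70.1 and 61.2 at P24 and 1504, 2519 and 859 at P28, so that the P28 dM1/2 libraries lay far above the other 9. It rose by 4.46 on the log2 scale in dM1/2, with a control change of 0.03 (adjusted p = 0.975) and a difference of 4.43 ± 0.56 (SE, adjusted p = 0.0126), and passed in all 12 fits that left out a library. Cemip, which takes part in hyaluronan breakdown, was low in controls, with 3.10, 6.53 and 14.7 and then 4.35, 5.76 and 3.41 normalized reads, and went from 9.81, 22.9 and 21.98 to 231, 319 and 248 in dM1/2. Its difference was 4.40 ± 0.69 (SE, adjusted p = 0.0298). The other 3 genes of this class were chosen by their class after their values were seen: Lix1 changed by 2.70 (adjusted p = 0.0084) in dM1/2, Nmnat2, an NAD synthesis enzyme of axons, by 2.31 (adjusted p = 0.0139) and Sez6l2 by 2.92 (adjusted p = 0.0231).

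For other genes the fitted changes of the genotypes had opposite signs. Sema7a (chr9:57940112-57962865), a membrane-anchored semaphorin that binds integrins, had 179, 137 and 184 normalized reads in the P24 controls and 56.98, 70.4 and 41.7 in the P28 controls, and 215, 197 and 259 in dM1/2 at P24 and 430.3, 546 and 668 at P28. No 2 of these 4 groups overlapped. It fell by 1.56 on the log2 scale in controls, and its change in dM1/2 was 1.28 (adjusted p = 0.0514). The difference was 2.84 ± 0.32 (SE, adjusted p = 0.00919). Epha2, an ephrin receptor, had 265, 742 and 479 and then 221, 182 and 228 in controls and 367, 379 and 460.3 and then 976, 872 and 827 in dM1/2. Its difference was 2.27 (adjusted p = 0.0379). Cntn3, a contactin of the nervous system, had 191, 209 and 257 and then 109.6, 21.8 and 110.4 in controls, with P28 control 2 the lowest, and 38.2, 93.3 and 44.98 and then 370.1, 689 and 401 in dM1/2. Its dM1/2 levels lay below the controls at P24 and above them at P28. The difference was 4.82 ± 0.79 (SE, adjusted p = 0.031). Gata3, a transcription factor of the inner root sheath and of T cells, had 46.4, 39.7 and 24.2 and then 18.3, 8.97 and 5.31 in controls and 41.8, 80.4 and 150.5 and then 382, 318 and 228 in dM1/2. Its difference was 3.68 (adjusted p = 0.044).

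Ligands, receptors and transcription factors of development were among these genes as well. Wnt10a, a Wnt ligand of skin appendages, had 35.6, 27.6 and 48.03 normalized reads in the P24 controls, 27.4, 16.01 and 11.4 in the P28 controls, 58.5, 39.99 and 48.4 in the P24 dM1/2 mice and 133, 189.8 and 128 in the P28 dM1/2 mice. Neither change of Wnt10a passed alone, at -1.03 (adjusted p = 0.0773) in controls and 1.60 (adjusted p = 0.0822) in dM1/2, while their difference was 2.63 ± 0.47 (SE, adjusted p = 0.0383). Prrx2, a homeobox factor of mesenchyme, fell in controls from 879, 716 and 902 to 587, 501 and 556 and held 1093, 957 and 1342 and then 1512, 2117 and 1722 in dM1/2. Its difference was 1.25 (adjusted p = 0.0392). Hs3st5, a heparan sulfate sulfotransferase, and Dusp26, a phosphatase, held at most 3 reads in every P28 control, and their fitted differences of 4.36 and 3.64 depend on the pseudocount. Of the 64 genes toward dM1/2, 4 were at this limit, and with them set to it the median of dM1/2 against controls at P28 over the 64 genes was 3.22 on the log2 scale, as it was in the fit.

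In the largest class of those toward dM1/2, controls fell and the dM1/2 change did not pass the test. Pcsk2, a protease that processes prohormones, fell in controls from 341, 348 and 468 to 42.6, 11.5 and 25.8 normalized reads and had 142, 206 and 175 and then 185, 231 and 103 in dM1/2, so that dM1/2 lay below the controls at P24 and above them at P28. Its difference was 3.90 ± 0.59 (SE, adjusted p = 0.0298). Rab3b, a GTPase of vesicle release, fell in controls from 228, 168 and 356 to 35.7, 3.84 and 6.83. Its dM1/2 values were 207, 165 and 215 and 160.3, 228 and 228. Its difference was 4.49 (adjusted p = 0.0411). Cyp26b1, which degrades retinoic acid, was abundant: it fell in controls from 14147, 15019.6 and 22076 to 3247, 5086 and 4186. The mutant DP had 19002, 25017 and 22380.5 and 24173, 21023 and 18246. Only the P28 controls stood apart for Cyp26b1. Its difference was 1.96 ± 0.32 (SE, adjusted p = 0.031). Mmp25, a membrane-anchored matrix protease, fell in controls from 57.3, 64.3 and 74.2 to 10.9, 8.97 and 20.1, while dM1/2 stayed above the controls with 172, 163 and 175 and 166, 182 and 147. Its difference was 2.23 (adjusted p = 0.0312). Megf6, an EGF repeat protein, fell in controls from 14754, 13708 and 19414 to 4447, 2423 and 3429.8. Levels in dM1/2 were 14809, 10109 and 11779 and then 7068, 9092 and 10073. Its difference was 1.76 (adjusted p = 0.0488).

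For Spp1 and Chrna7 of that class the fall brought controls down to a level that dM1/2 already had at P24. For Sstr2 and Nkain3 the P28 controls lay below the P28 dM1/2 mice. Spp1, or osteopontin, a secreted matrix phosphoprotein, fell in controls from 419, 585 and 703 to 65.2, 35.9 and 18.2 normalized reads. Mutant mice had 27.6, 33.5 and 20.6 at P24 and 12.4, 42.9 and 27.7 at P28. The genotypes overlapped for Spp1 at P28 only. The difference was 3.83 ± 0.70 (SE, adjusted p = 0.0388). Chrna7, a nicotinic acetylcholine receptor subunit, behaved in the same way, with 575, 559 and 565 and then 79.2, 99.3 and 121 in controls and 66.5, 122 and 62.6 and then 69.1, 56.6 and 86.3 in dM1/2. Its difference was 2.32 ± 0.37 (SE, adjusted p = 0.0298). Sstr2, a somatostatin receptor, fell in controls from 61.1, 53.7 and 43.3 to 5.22, 0.64 and 3.41, past the 10.2, 14.6 and 20.9 of the P28 dM1/2 mice, which had held 14.2, 17.1 and 10.8 at P24. Its difference was 3.98 (adjusted p = 0.0379), and that of Nkain3, which had 3.04, 4.48 and 13.3 in the P28 controls and 48.6, 64.3 and 71.9 in the P28 dM1/2 mice, was 3.89 (adjusted p = 0.0312). The P28 control levels of Sstr2 and Nkain3 were low, so that their fitted differences depend on the pseudocount.

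Among the other genes that differed toward dM1/2, Ogdhl and St8sia2 are named because they passed in all 12 fits that left out a library, a choice made after their values were seen. Ogdhl, a mitochondrial enzyme, had 135, 128 and 208 and then 57.9, 37.8 and 47.8 normalized reads in controls and 320.2, 425 and 465 and then 736, 976 and 826 in dM1/2. Its difference was 2.75 (adjusted p = 0.01). St8sia2, which builds polysialic acid, had 934, 863 and 1949 and then 137, 121 and 101 in controls and 1610.1, 1302 and 1212 and then 1081, 1179.7 and 1347 in dM1/2. Its difference was 3.09 (adjusted p = 0.0107). With Dusp4, Sema7a, Wdr86 and Slc12a1 they were among the 7 genes that passed in every such fit, and over the 100 genes the median number of such fits passed was 4 of 12. Across the 64 genes toward dM1/2, the smallest difference was 0.96, for Sema6a.

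**Figure D4:**
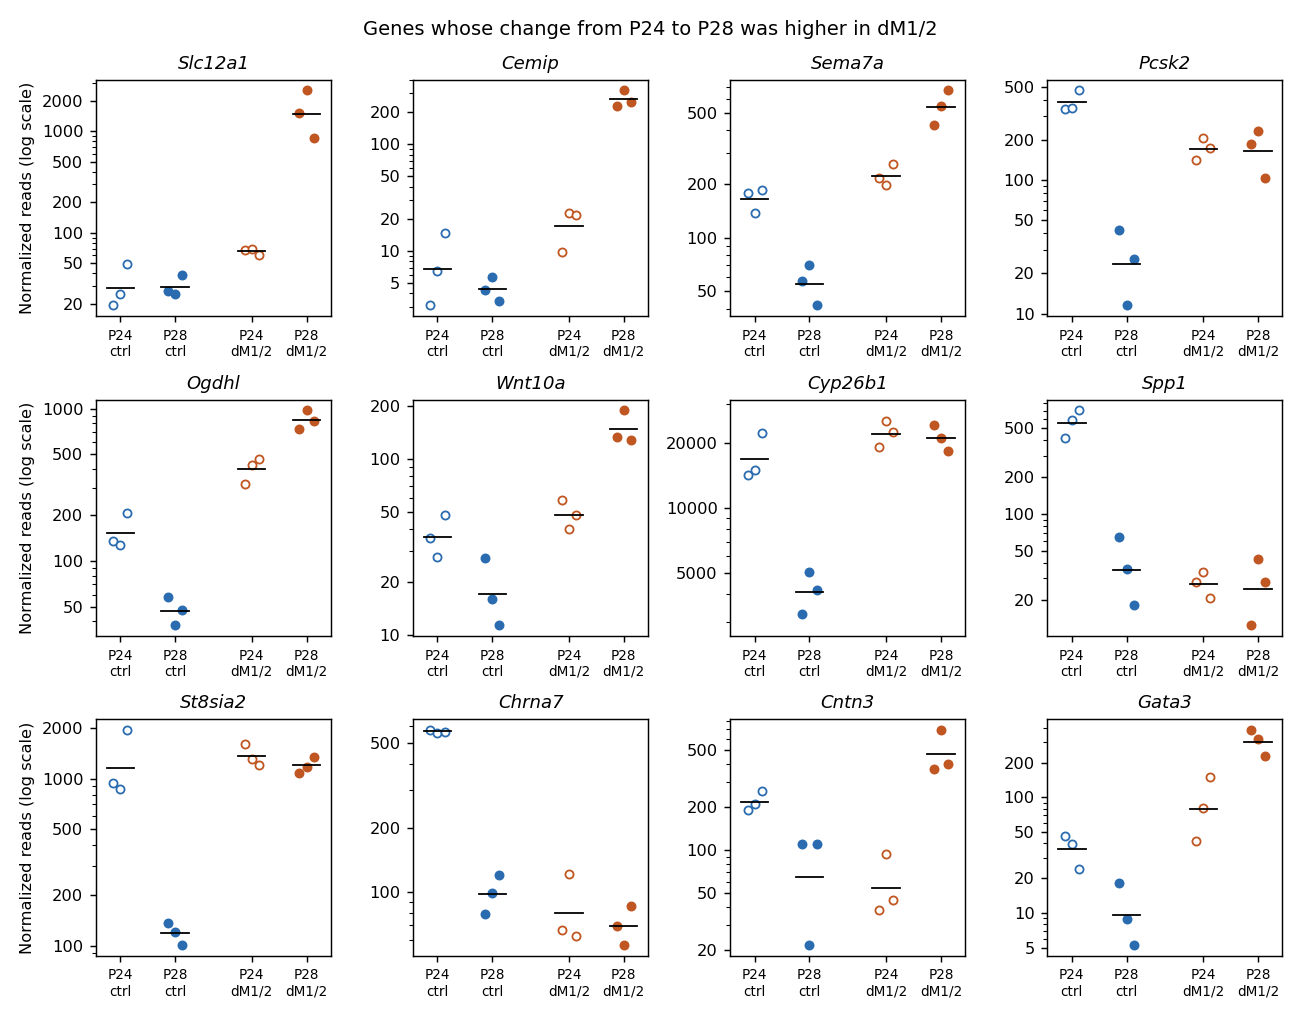
Normalized reads (y axis, log scale, its range set for each gene) of 12 genes whose change from P24 to P28 was higher in dM1/2, for 3 controls (blue) and 3 dM1/2 mice (orange) at P24 (open) and P28 (filled); the line in each group is the mean on the log scale. Slc12a1 and Cemip step up in dM1/2 with little change in controls, Sema7a and Cntn3 lie lower at P28 in controls and higher at P28 in dM1/2, and Cyp26b1, Spp1 and Chrna7 step down in controls, with dM1/2 changes that did not pass the test.

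Of the 41 genes that changed in dM1/2, 21 also changed in controls, all in the same direction. That is 51.2% of the genes changed in dM1/2, where 10.5% of all genes tested changed in controls. It is 1.42% of the genes changed in controls, where 0.29% of all genes tested changed in dM1/2. Both changes use the same estimate of a gene's spread, so that genes of low spread tend to pass in both. The genes described next are examples chosen after their values were seen. Stac, an adaptor of calcium channels, rose in both genotypes, from 72.3, 73.8 and 63.5 to 570.2, 933 and 1193 normalized reads in controls and from 293, 303 and 287 to 1397, 1414 and 891 in dM1/2. Gpr176, an orphan receptor, rose from 72.7, 66.3 and 87.7 to 759, 671 and 796 in controls and from 53.1, 46.8 and 30.1 to 134, 187 and 183 in dM1/2. In both genes the control change was the larger in size, with differences of -1.57 (adjusted p = 0.0726) for Stac and -1.33 (adjusted p = 0.0912) for Gpr176 that did not pass. Clstn2, a calsyntenin, fell from 2956, 3621 and 4138 to 1109, 680.1 and 1314 in controls and from 1831, 1858 and 1268 to 483, 323 and 602 in dM1/2, changes of -1.83 and -1.84. Hs3st1, a heparan sulfate sulfotransferase, had changes of -1.75 and -1.80, and Tgfb1, a TGF-beta ligand, changes of 0.73 and 0.84. Lcn2, a siderophore-binding protein of inflammation, rose from 1.93, 0.5 and 1.98 to 17.4, 23.7 and 13.7 in controls and from 1.09, 0.76 and 1.69 to 27.7, 51.4 and 49.4 in dM1/2. Tnn, or tenascin-W, a matrix protein, rose in dM1/2 from 139, 303 and 246 to 3776, 10366 and 5444 normalized reads, against 58.03, 182 and 53.2 and then 87.9, 273 and 28.4 in controls. The change of Tnn in dM1/2 was 4.77 (adjusted p = 0.0273), yet the difference of 4.67 ± 1.04 (SE, adjusted p = 0.0701) did not pass.

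Cell division genes showed a shared direction with few single calls. All 46 mitosis genes tested had a difference above 0, from 0.82 to 2.55, with a median of 1.46 against 0.03 over all genes. Of these genes 1, Pbk, passed the test of the difference. Over all 14139 genes tested, 7608 had a difference above 0. Members of a list can move together within a library, so that such counts are not independent. In controls 44 of the 46 fell (6.15% of all genes did), with a median change of -1.94, and in dM1/2 none of the 46 passed, with a median change of -0.42. All 46 were higher in dM1/2 than in controls at P24 and at P28, where 15.3% and 23% of all genes were, and the median gap was 1.67 at P24 and 3.16 at P28. Of 46 DNA replication genes, 43 had a difference above 0, 1 passed, Mcm2, 31 fell in controls and none passed in dM1/2. Their median difference was 0.57, with medians of -0.90 in controls and -0.35 in dM1/2, and the median gap was 1.33 at P24 and 1.91 at P28. Of 57 replication-dependent histone genes tested out of 68, 55 had a difference above 0 and 6 passed, namely Hist1h3i, Hist1h3b, Hist1h3c, Hist1h2ak, Hist1h2bg and Hist1h1b. In controls 47 histone genes fell and 1 rose, none passed in dM1/2, and the medians were 1.57 for the difference, -2.19 in controls and -0.52 in dM1/2.

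Library by library, Pbk, a kinase of mitosis, had 106, 107 and 260.01 normalized reads in the P24 controls, 20.4, 14.7 and 28.1 in the P28 controls, 284, 251 and 358 in the P24 dM1/2 mice and 205, 282 and 291 in the P28 dM1/2 mice. Its difference was 2.55 ± 0.49 (SE, adjusted p = 0.046). Ube2c, the ubiquitin-conjugating enzyme of the anaphase-promoting complex, had 88.99, 74.3 and 151 and then 21.3, 22.4 and 9.10 in controls and 249, 193 and 385 and then 210.2, 268 and 291 in dM1/2. Cdk1, the kinase that drives entry into mitosis, had 161, 117 and 284 and then 51.8, 16.01 and 33.4 in controls and 638, 503 and 828 and then 583, 659.9 and 644 in dM1/2. The P28 controls were thus the lowest group and P24 control 3 the highest control for each of them, and the differences of Ube2c and Cdk1 were 2.48 (adjusted p = 0.0649) and 2.46 (adjusted p = 0.0772). Top2a, the topoisomerase that untangles replicated DNA, had 976, 665 and 2387 and then 269.7, 183 and 193 in controls and 3835, 2995 and 3973 and then 2028, 2361 and 2748 in dM1/2. Its difference was 1.85 (adjusted p = 0.147). Mcm2, a subunit of the replicative helicase, fell in controls from 327, 299 and 451 to 84.4, 96.7 and 70.9 and had 1250.3, 854 and 1223 and then 671, 745 and 988 in dM1/2. Its difference was 1.60 ± 0.31 (SE, adjusted p = 0.0432). Hist1h3b, a histone H3 gene, fell in controls from 98.7, 107 and 190.1 to 14.4, 14.7 and 22.4 and had 522, 336 and 604 and then 322, 343 and 312 in dM1/2. Its difference was 2.30 ± 0.41 (SE, adjusted p = 0.0379). Hist1h3i fell in controls from 124, 128 and 185 to 15.2, 18.6 and 15.2 with a difference of 2.36 ± 0.34 (SE, adjusted p = 0.0247), and Hist1h3c had a difference of 2.23 (adjusted p = 0.0423). Histone H3 genes are near-identical copies among which reads can be split, so that the values of single copies are uncertain.

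The control fall rested in part on P24 control 3, which was high for these genes. Without it 36 of the 46 mitosis genes, 19 of the 46 DNA replication genes and 39 of the 57 histone genes fell in controls, and the median difference of the mitosis genes was 1.06, the lowest of the fits that left out a library. DNA replication calls in controls were also 20 without P28 control 1. With P28 control 2 as the sole P28 control, 36 mitosis, 19 DNA replication and 46 histone genes fell in controls, and the median differences were 1.49, 0.45 and 1.79. None of the genes on these lists passed in dM1/2 in any of these fits. The 6 histone genes past the threshold of the difference became 0 without P24 control 3, P24 dM1/2 1 or any of the P28 dM1/2 libraries, 1 without P24 control 1 or P24 dM1/2 2 or 3, 2 without P28 control 1, 5 and 7 without P28 controls 2 and 3 and 10 without P24 control 2, and Pbk and Mcm2 each passed in 2 of the 12 fits. Over these fits 0 to 5 mitosis genes and 0 to 3 DNA replication genes passed the test of the difference, and with P28 control 2 as the sole P28 control 3 mitosis and 18 histone genes did.

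**Figure D5:**
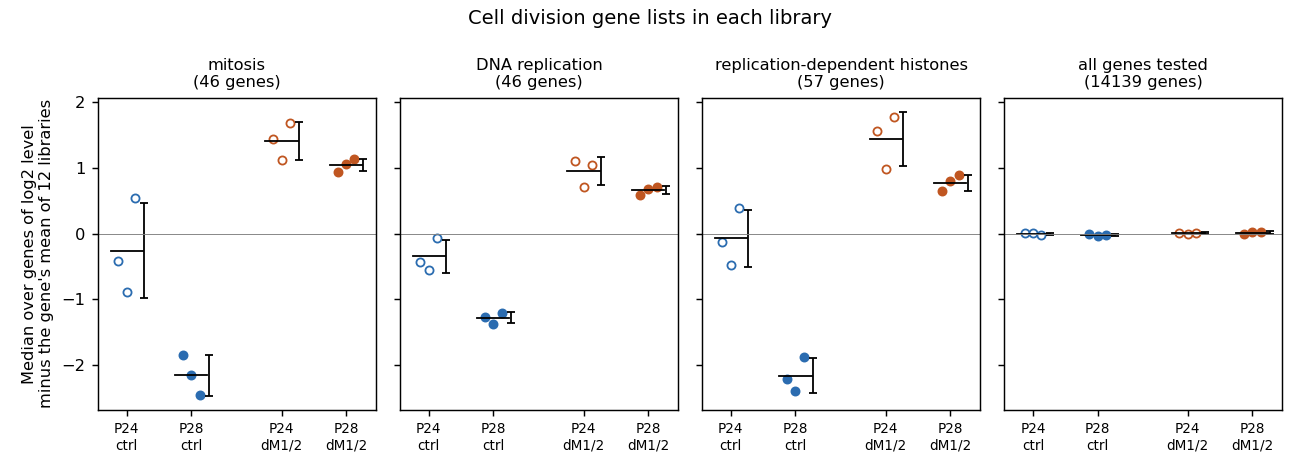
Median over the genes of a list of the log2 level minus the mean of that gene over 12 libraries (y axis) for mitosis, DNA replication and replication-dependent histone genes and for all genes tested; points are libraries of controls (blue) and dM1/2 (orange) at P24 (open) and P28 (filled), with the mean (line) and SD (bar) of 3. Controls step down from P24, where mitosis values are -0.42, -0.89 and 0.53, to P28, where they are -1.84, -2.15 and -2.46, while dM1/2 goes from 1.44, 1.11 and 1.68 to 0.94, 1.06 and 1.13.

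Many genes of mitosis carry a cell cycle homology region (CHR), TTTGAA, near their start, through which the DREAM complex and B-Myb act; the promoters of genes from these lists are shown for that reason. Promoters were taken from RefSeq on GRCm38.p6, from 250 bases before to 50 after each start, and both strands were searched. Of 46 mitosis genes 38 were matched by symbol, and 30 of their 41 promoters (73.2%) held TTTGAA, against 5878 of the 32851 promoters of the table (17.9%). Of 57 histone genes 51 were matched, and 24 of their 52 promoters (46.2%) held it. The E2F motif TTCGCGC was found in 2 mitosis promoters (4.88%) and 9 histone promoters (17.3%), against 1.59% of the table, the E2F motif TTGGCGC in 6 (14.6%) and 0, against 2.45%, and the GC box GGGCGG in 32 (78%) and 20 (38.5%), against 35.7%. Promoters matched to the genes tested here held TTTGAA in 12%, TTCGCGC in 2.9%, TTGGCGC in 4.07% and GGGCGG in 61.5%. With 77.9% of genes matched, under the limit of 80% used below, these shares are a description only. The GC box share of the histone promoters lay above that of the table and below that of the genes tested. DNA replication genes (78.3% matched) and the 64 and 36 genes that differed (71.9% and 77.8% matched) had fewer than 80% of members in the table, so that a comparison of their shares is void. Of the 44 DNA replication promoters found, 7 held TTTGAA (15.9%), 10 TTCGCGC (22.7%) and 11 TTGGCGC (25%). Mcm2 is shown because it passed the test of the difference. The 120 bases before the start follow, 5′ to 3′ in the direction of transcription, with the CHR of either strand in capitals; a match is a run of letters and not a measured binding site.
Ube2c (chr2:164769809-164769928, plus strand): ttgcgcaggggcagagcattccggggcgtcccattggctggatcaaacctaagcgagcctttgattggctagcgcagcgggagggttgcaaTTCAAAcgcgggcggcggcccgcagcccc
Cdk1 (chr10:69352913-69353032, minus strand): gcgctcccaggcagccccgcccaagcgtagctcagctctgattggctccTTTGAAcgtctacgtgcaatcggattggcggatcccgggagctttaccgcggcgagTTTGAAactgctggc
Top2a (chr11:99024190-99024309, minus strand): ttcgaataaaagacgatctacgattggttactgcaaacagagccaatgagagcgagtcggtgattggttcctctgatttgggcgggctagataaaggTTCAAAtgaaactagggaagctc
Mcm2 (chr6:88898781-88898900, minus strand): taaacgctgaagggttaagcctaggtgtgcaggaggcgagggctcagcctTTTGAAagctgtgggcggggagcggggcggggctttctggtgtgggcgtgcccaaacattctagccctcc
Hist1h3b (chr13:23752225-23752344, plus strand): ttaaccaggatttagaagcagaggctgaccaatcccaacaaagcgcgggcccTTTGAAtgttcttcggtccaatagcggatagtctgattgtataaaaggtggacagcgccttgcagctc
Hist1h3c (chr13:23745522-23745641, minus strand): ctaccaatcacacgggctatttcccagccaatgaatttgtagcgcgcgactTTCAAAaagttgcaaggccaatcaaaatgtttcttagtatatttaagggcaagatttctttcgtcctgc
Hist1h3i (chr13:21783398-21783517, minus strand): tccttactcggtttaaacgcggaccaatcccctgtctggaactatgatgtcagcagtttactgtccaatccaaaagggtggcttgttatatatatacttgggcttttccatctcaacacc
Cdk1 has 2 such runs, the other genes shown have a single run, and Hist1h3i has none in the bases shown although it fell in controls as Hist1h3b did. Ube2c, Cdk1 and Top2a are examples that did not pass the test of the difference. Other mitosis genes, among them Nuf2, Spc25, Kif4, Bub1 and Aurka, have no such run in their 120 bases.

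Signals that the DP sends to the matrix were mostly not called in the difference. Corin, the protease whose locus drives the Cre, had 12267, 17134 and 15411 and then 41112, 30326 and 75255 normalized reads in controls and 4754, 3537 and 3138 and then 4581, 4009 and 5005 in dM1/2. Corin rose in controls by 1.62 on the log2 scale. Its difference was -1.35 (adjusted p = 0.19). Rspo4, an R-spondin, which boosts Wnt signalling, had 3273, 7363 and 781 and then 16691, 16662 and 37365 in controls and 815, 2663 and 2516 and then 6097, 4232 and 3683 in dM1/2. Its control change was 3.04 (adjusted p = 0.021), where the P24 values were widely spread, and its difference was -1.66 (adjusted p = 0.58). Rspo1 had a difference of -0.74 (adjusted p = 0.086), Rspo3 of -1.35 (adjusted p = 0.103) and Rspo2 of -1.13 (adjusted p = 0.407), all below 0 and none past the threshold. Without P28 control 2 the first 2 of them passed, Rspo1 with -0.86 (adjusted p = 0.033) and Rspo3 with -1.61 (adjusted p = 0.033). Rspo3 had 4536, 6188 and 5764 and then 2849, 2211 and 3323 in dM1/2 against 6684, 8959 and 6821 and then 10816, 6638 and 12189 in controls, and its dM1/2 levels at the 2 ages did not overlap. Axin2, a Wnt target, rose in controls from 947, 1537 and 631 to 3046, 2548 and 4616, with a dM1/2 change of 0.80 (adjusted p = 0.359) and a difference of -0.96 (adjusted p = 0.407). Fgf7 and Fgf10, growth factors for the epithelium, had differences of -0.36 (adjusted p = 0.875) and -0.44 (adjusted p = 0.9), with 95% intervals of -1.47 to 0.74 and -2.01 to 1.12 that leave room for changes of either sign, and with P28 control 2 as the sole P28 control both were above 0, at 0.65 and 0.79.

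The counts over lists that follow stand against shares over all genes of 4.3% that rose and 6.15% that fell in controls, 0.29% that changed in dM1/2 and 0.707% that passed the test of the difference. In the fit without P28 control 2, 167 of the 14113 genes tested passed the test of the difference. More genes passed with that library as the sole P28 control, so that counts from that fit stand against a larger share. Of the 27 DP markers, 3 rose and 4 fell in controls, none passed in dM1/2, and Nog alone passed the test of the difference. Their median difference of -0.20 had no stable sign: it was -0.51 without P28 control 2, with 3 markers past the threshold, and 0.65 with that library as the sole P28 control, with 4. Of 8 R-spondin genes and receptors tested none passed the difference, though Lgr6, an R-spondin receptor, had 405, 147 and 672 and then 147, 323 and 102 normalized reads in controls and 393, 310.4 and 227 and then 1314, 2389 and 1523 in dM1/2. Its difference was 3.49 (adjusted p = 0.0649), and 3.95 (adjusted p = 0.0338) without P28 control 2, where Lgr6, Rspo1 and Rspo3 were the 3 of the list that passed. Wnt ligands had 1 call of 12, Wnt10a, and 3 of them fell in controls. Secreted Wnt inhibitors had none of 11, and among them Sfrp1 rose in controls from 10684, 13910.1 and 5418 to 50271, 38464 and 75205. The dM1/2 levels were 3918, 6474 and 5484 and 6743, 6328 and 6397. Its difference was -2.17 (adjusted p = 0.0701), and it passed without P28 control 2 with -2.40 (adjusted p = 0.0465). Of 13 ERK feedback genes 4 rose and 1 fell in controls, 2 rose in dM1/2 and Dusp4 passed the difference. Spry1, an inhibitor of ERK signalling, rose in both genotypes, from 1154, 1671 and 1176 to 6441, 6154 and 9727 in controls and from 1152, 1456 and 1734 to 4597, 3852 and 4299.6 in dM1/2. Its difference was -0.90 (adjusted p = 0.234). BMP genes had 1 call of 22, Nog, with 4 that rose and 3 that fell in controls, and Notch genes 1 of 15, Notch2, with 2 that rose and 5 that fell in controls. Of 65 axon guidance genes 14 fell and none rose in controls, 1 rose and 1 fell in dM1/2, and 3 passed the difference, Sema7a, Epha2 and Sema6a, all toward dM1/2. With P28 control 2 as the sole P28 control 8 axon guidance genes passed.

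Cell cycle control and p53 lists had no call in the difference with all 12 libraries. Of 34 genes of p53 and its direct targets, 25 had a difference above 0, against 7608 of all 14139 genes, with a median of 0.36. In controls 1 of them rose and 3 fell, and in dM1/2 1 rose. Trp53, the gene of p53, had 949, 1024 and 1283 and then 825, 811 and 742 normalized reads in controls and 1072, 1152 and 1073 and then 1549, 1352 and 1290.3 in dM1/2. It fell in controls by 0.44 on the log2 scale. Its difference was 0.79 (adjusted p = 0.0726), and all P28 dM1/2 libraries lay above all P28 controls. Cdkn2a, which encodes inhibitors of Cdk4 and Mdm2, had a difference of 0.87 (adjusted p = 0.674) at 2.28 to 35.4 normalized reads over the 12 libraries. Ccnd1, cyclin D1, had 400.4, 554 and 166 and then 374, 644 and 251 in controls and 2174, 3042 and 5539.8 and then 5733, 5435 and 4479 in dM1/2. For Ccnd1 the genotypes were apart at both ages, and the difference in change was 0.40 (adjusted p = 0.901). Of 21 G1 cyclins, kinases, inhibitors and Rb family members none passed the difference, 1 rose and 3 fell in controls, and the number higher in dM1/2 was 10 at P24 and 14 at P28, where 15.3% and 23% of all genes were. Ccnd2, cyclin D2, passed without P28 control 2 with 1.75 (adjusted p = 0.0357), and with that library as the sole P28 control 1 gene of this list and 1 of the p53 list passed.

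In the broader lists, cytosolic ribosomal protein genes had a difference above 0 in 79 of 81, against 7608 of all 14139 genes. Their median difference was 0.27, with none called. That median was 0.10 to 0.42 over the fits that left out a library and 0.11 with P28 control 2 as the sole P28 control. Of the 81, 18 were higher in dM1/2 at P24 and 60 at P28, against 15.3% and 23% of all genes. The 13 mitochondrially encoded genes had a median of -0.29, with 1 above 0 and none called. Imprinted genes had a median of 0.65 over 22, with none called, but the median ran from -0.08 to 1.05 over the fits that left out a library and was -0.34 with P28 control 2 as the sole P28 control. The imprinted gene with the smallest p, Mest, had 1111, 835 and 773 and then 324, 277 and 103 normalized reads in controls and 576, 794 and 959.8 and then 629, 1149 and 870.4 in dM1/2. Mesenchymal homeobox genes, among them the Msx, Alx, Prrx and Dlx families, had a median of 0.94 over 11, with 1 called, Prrx2. Bone matrix genes had 1 call of 16, Spp1, retinoid genes 1 of 15, Cyp26b1, matrix proteases and their inhibitors 1 of 51, Mmp25, potassium channels 1 of 56, Kcnn3, cadherins and non-clustered protocadherins 1 of 30, Cdh6, and neurotransmitter receptors 2 of 47, Chrna7 and Cnr1, in opposite directions. The lists of Wnt targets, FGF, TGF-beta, Hedgehog, IGF and PDGF, HGF and VEGF signals, signals to melanocytes, the Hdac family and its corepressor subunits, versican and hyaluronan partners, collagens, laminins and integrins, clustered protocadherins, Hox clusters, sodium and calcium channels, interferon, hypoxia, clock, immediate early and respiratory chain genes, 20 in all, had no call with all 12 libraries. Without P28 control 2, where 167 of all 14113 genes tested passed, there were 8 calls in 6 of these lists. Among them were Fgf13 with 2.16 (adjusted p = 0.0194), the corepressor Rcor2 with 1.96 (adjusted p = 0.0177) and the glypican Gpc6 with -1.66 (adjusted p = 0.0338). Calls also appeared with that library as the sole P28 control. There the difference was 2.24 for Fst, which encodes the activin antagonist follistatin, and 2.29 for Cox6b2, a subunit of cytochrome oxidase.

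Markers of other cell types showed no called difference in any of 12 lists with all 12 libraries. Some lists had few members tested: 2 of 20 matrix and shaft keratinocyte markers and 1 of 5 red blood cell markers. Likewise 3 of 10 skeletal muscle and 4 of 8 adipocyte markers were tested. With 0.707% of all genes called, lists this short would hold few calls in any case, so that no conclusion about other cells is drawn. Without P28 control 2, 1 Schwann cell and 1 adipocyte marker passed, and with it as the sole P28 control 1 Schwann cell and 1 endothelial marker did. Keratinocyte markers of the epidermis and outer root sheath summed to 209 to 771 normalized reads over the 12 libraries, matrix and shaft keratinocyte markers to 36.6 to 202, immune markers to 239 to 2255, endothelial markers to 452 to 2020 and skeletal muscle markers to 60.8 to 344.98, against 190938 to 717438 for DP markers. Dermal sheath and smooth muscle markers summed to 4903 to 16416 and pericyte markers to 5451 to 10225. The lists differ in size and in the abundance of their genes, so that these sums do not measure purity. Each marker with a row in the files was read in some library. The immune sum was highest in P24 control 1 and P28 dM1/2 3, and the median difference of immune markers was 1.30, from 0.49 to 2.48 over the fits that left out a library. Median differences were 1.19 for skeletal muscle, 1.03 for Schwann cell and 0.88 for endothelial markers. The sums of other dermal fibroblast markers, from 517519 to 8.52391e+06, had both their lowest and their highest value among the P28 controls, and their part in the results was not tested.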

How the data were processed

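DP cells of 3 control and 3 dM1/2 mice at each of P24 and P28 were profiled by RNA-seq. After ribosomal depletion and a directional kit, the authors used Trimmomatic for trimming, TopHat2 for alignment to mm10 and HTSeq on GRCm38.p4 for counting, and scaled all 24 libraries jointly with DESeq2 (the strand setting of the counting is not given in the sources used here). The deposited signal of a gene is its count scaled by a library size factor, and taking out the value of a single read gave whole reads for 100% of values (tolerance 0.01 reads). The deposited fold changes and p-values of the authors were not used. Groups come from the sample labels, which name no batch, and a group's replicates are separate mice.

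The main test was limma 3.58.1 (R 4.3.3) with a trend on log2(normalized reads + 1) over 12 libraries, two-sided. It covered genes averaging 10 or more normalized reads, with Benjamini-Hochberg adjustment over 14139 genes and a threshold of 0.05. A run on simulated counts gave every group the same spread and held no outlying library, unlike these data, so that no support is drawn from it. A gene without a read allows up to 3 reads, which covers counting error only. The design foresaw edgeR if raw counts were held; on the recovered reads edgeR 4.0.16 with TMM called 103 genes in the difference and DESeq2 1.42.0 called 595. Named genes are Hdac1, Hdac2, genes the study stained or measured, the 12 largest differences in each direction without predicted gene models, the 5 most abundant called genes, and up to 3 called members of each list, or the member with the smallest p; not every gene that the rule names is reported here. The members and lists were chosen with earlier results of these data known. Promoters were matched by symbol to RefSeq (GRCm38.p6). Alternatives were other pseudocounts, filters, thresholds, tools and fits, a replicate block, weights, and each library left out.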

Additional observations from a re-analysis of the deposited data

Results flagged for a closer look

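The change from P24 to P28 differed between controls and dM1/2, by limma's test of the difference itself, for 100 genes, and those named by the rule and reported here are given with their log2 difference in change, dM1/2 minus control.

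Among signalling genes, the difference was 3.98 for Sstr2, 2.84 for Sema7a, 2.63 for Wnt10a, 2.32 for Chrna7, 2.27 for Epha2 and 0.96 for Sema6a. It was -4.07 for Cnr1, -2.73 for Dusp4, -2.37 for Nrg2, -2.08 for Nog and -1.09 for Notch2.

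Among adhesion, matrix and membrane genes, the difference was 4.82 for Cntn3, 4.43 for Slc12a1, 4.40 for Cemip, 4.36 for Hs3st5, 3.89 for Nkain3, 3.83 for Spp1, 2.23 for Mmp25 and 1.76 for Megf6. It was -3.28 for Bves, -3.26 for Celsr1, -3.19 for Matn4, -2.79 for Flrt1, -2.73 for Cdh6, -2.45 for Tenm4, -1.79 for Kcnn3 and -1.43 for Tmem176b.

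Among enzymes, vesicle proteins and transcription factors, the difference was 4.49 for Rab3b, 3.90 for Pcsk2, 3.68 for Gata3, 3.64 for Dusp26, 1.96 for Cyp26b1 and 1.25 for Prrx2. It was -3.97 for Lipg, -3.33 for Wdr86, -2.58 for Cmpk2 and -1.01 for Zhx3.

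Among cell division genes, it was 2.55 for Pbk, 2.36 for Hist1h3i, 2.30 for Hist1h3b, 2.23 for Hist1h3c and 1.60 for Mcm2. In the 17 named genes below 0, every P28 control lay above every P24 control. P24 and P28 controls did not overlap in 26.5% of all genes tested. The named genes were chosen by these same values, so that such a gap is partly set by the choice.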

How the results depend on the processing

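In the main fit 100 genes passed in the difference, 1478 in controls and 41 in dM1/2. None of the 100 changed direction under an alternative that tested it. Each fit that left out a library kept the direction of at least 1473 of the 1478 and at least 40 of the 41. Genes not tested in a fit were not told apart there from genes that turned. All of these genes were chosen from these same libraries, so that a kept direction is largely set by the choice and tests nothing. Other settings moved the counts. In the difference, 151 genes passed with log2(normalized reads + 10), 66 with at least 10 normalized reads in every library, 4 at an adjusted p under 0.01, 595 with DESeq2, 92 with all 24 libraries (38 toward dM1/2 and 54 toward controls) and 2397 with library weights, whose estimate did not converge. With P28 control 2 as the sole P28 control, an alternative chosen after seeing the data in which that library is assumed to vary like the other groups, 427 passed, 83 of them among the 100, and 176 passed in dM1/2. In controls 563 passed at 0.01, 909 with an absolute log2 change of at least 1, 2255 with DESeq2, 6236 with library weights, 924 with a weight for each group and 198 in a fit of the 6 control libraries. In dM1/2 110 passed with the larger pseudocount, 70 with no filter, 7 at 0.01, 85 with all 24 libraries, 421 with DESeq2, 1943 with library weights, 233 with group weights and 364 in a fit of its 6 libraries. Group weights and the 6-library fits were also chosen after seeing the data. edgeR and limma on log2-CPM stayed within 1.5 times of each count. Leaving out a library gave 8 (without P28 dM1/2 2) to 167 (without P28 control 2) genes in the difference, 734 (without P24 control 3) to 1948 (without P28 control 3) in controls and 2 (without P28 dM1/2 2) to 139 (without P28 control 2) in dM1/2.

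With the replicate number as a block, 49 genes passed in the difference, 1182 in controls and 15 in dM1/2. Same-numbered libraries had correlations of their deviations from -0.39 to 0.31, with 3 of 18 pairs above 0.1, so that the numbers were not taken to pair the mice. Each group held 3 libraries, and the parts of the spread between mice and of the depth in these calls were not tested. The causes of these shifts were not tested, apart from those an alternative sets by its own construction.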
